A study of Homo sapiens with 12 samples.

Results

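The genes described here are 4 that were named for induction by tumour necrosis factor alpha (TNFα): TNFAIP1, TNFAIP2, TNFAIP6 and TNFAIP8. They were taken by symbol, each from the probe set that carries that 1 symbol and, where a gene has several, the one with the highest mean over the 12 arrays. Each of the 4 members had 1 such probe set, and together they are 4 of the 17958 genes compared. The cells were BT549, a triple-negative breast cancer line, transfected for 72 hours with a pool of siRNAs against c-Jun or with a control siRNA and then given TNFα or vehicle for 6 hours. The groups were c-Jun siRNA with TNFα, control siRNA with TNFα, c-Jun siRNA with vehicle, and control siRNA with vehicle, with 3 arrays each. No label states whether the replicates were grown separately, and the p-values therefore cover only the spread among these arrays, which may be technical. The transfection itself was common to all groups, and all arrays come from 1 cell line, which limits what the groups model.

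The 4 gene names share a history, not a protein fold. TNFAIP1 is a BTB-domain adaptor (hBACURD2) that brings substrates such as the GTPase RhoA to the cullin 3 ubiquitin ligase. TNFAIP2, also called B94 or M-Sec, resembles exocyst subunits and promotes thin membrane bridges between cells. TNFAIP6, also called TSG-6, is a secreted Link-module protein that binds hyaluronan and moves heavy chains of inter-alpha-inhibitor onto it during inflammation. TNFAIP8 founded the TIPE family of lipid-binding proteins and restrains caspase-8 in death receptor signalling. TNFα reaches such genes through its receptors and NF-kB, and also through AP-1, the factor that contains c-Jun.

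The upstream windows of the members are shown because they differ in their matches to the sites of AP-1 and NF-kB. Each holds the 250 bases before a RefSeq start on GRCh38.p14, plus strand. They were searched on both strands for the AP-1 site TGANTCA and for the kB consensus of NF-kB, and capitals mark the matches, which do not overlap one another. TNFAIP6 (chr2:151357342-151357591) held 1 AP-1 match, 129 to 123 bases before the start, recorded as -129 to -123. TNFAIP1 (chr17:28335511-28335760) held 1 kB match, at -128 to -119. TNFAIP2 (chr14:103123211-103123460) and the first start of TNFAIP8 (chr5:119268509-119268758) held neither, nor did the other 2 of the 3 RefSeq starts of TNFAIP8. The TNFAIP2 window precedes the start at 103123461 but lies inside the annotated span of the gene, which begins at 103121469.
TNFAIP6: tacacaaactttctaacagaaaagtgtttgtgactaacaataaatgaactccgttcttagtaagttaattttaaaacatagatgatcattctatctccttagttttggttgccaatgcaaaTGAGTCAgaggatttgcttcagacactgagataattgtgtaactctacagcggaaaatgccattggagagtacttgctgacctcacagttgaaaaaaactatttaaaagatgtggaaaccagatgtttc
TNFAIP1: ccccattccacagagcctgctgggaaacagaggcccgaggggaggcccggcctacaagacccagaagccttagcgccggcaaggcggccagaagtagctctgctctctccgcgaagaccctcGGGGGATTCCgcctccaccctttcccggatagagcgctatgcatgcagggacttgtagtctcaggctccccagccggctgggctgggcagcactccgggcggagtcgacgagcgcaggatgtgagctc
TNFAIP2: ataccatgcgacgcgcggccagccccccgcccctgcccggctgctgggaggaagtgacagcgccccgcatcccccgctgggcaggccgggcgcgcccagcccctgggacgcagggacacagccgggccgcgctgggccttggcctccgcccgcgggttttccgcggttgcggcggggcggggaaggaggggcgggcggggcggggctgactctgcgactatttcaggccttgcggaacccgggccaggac
TNFAIP8: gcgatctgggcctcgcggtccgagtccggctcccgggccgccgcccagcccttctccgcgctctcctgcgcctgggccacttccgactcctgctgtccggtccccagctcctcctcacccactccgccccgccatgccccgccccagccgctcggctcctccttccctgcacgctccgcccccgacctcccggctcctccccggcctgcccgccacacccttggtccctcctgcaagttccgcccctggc
Of 34788 such windows in the RefSeq table, 6.59% held an AP-1 match and 5.21% a kB match. GC content was 34.4% for TNFAIP6, 66.0% for TNFAIP1, 77.2% for TNFAIP2 and 76.0% for the TNFAIP8 window shown, beside a median of 58.0% over all windows. A match describes letters in this window only.

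Values are log2 expression per probe set as deposited, and array medians lay between 5.62 and 5.68. These medians are over all 33297 probe sets, 12061 of them without a symbol, and lie below the median of the genes compared. Calls rest on an adjusted p under 0.05 from limma, fitted to all 12 arrays with Benjamini-Hochberg adjustment over all genes. Precision is limited by the array number, and the median standard error was 0.0649 for a log2 difference between 2 groups. JUN, the targeted gene, stood at 10.36, 10.33 and 10.39 with c-Jun siRNA and TNFα, against 11.12, 11.05 and 11.05 with control siRNA and TNFα. With vehicle it stood at 9.82, 9.85 and 9.81 with c-Jun siRNA, against 10.36, 10.35 and 10.36 with control siRNA. JUN fell by 0.71 with TNFα (-0.71 ± 0.032, log2, SE; adjusted p = 9.26e-12) and by 0.52 with vehicle (-0.52 ± 0.032, adjusted p = 4.48e-10). The fall in JUN signal was thus partial, and JUN in c-Jun siRNA cells given TNFα lay close to its level in control siRNA cells given vehicle. The arrays do not measure c-Jun protein. All 6 mesenchymal markers lay above the array medians in every group, and of 8 epithelial and luminal markers 2 or 3 did so, depending on the group. With control siRNA and vehicle, ERBB2 (8.86), KRT8 (6.10) and FOXA1 (5.78) lay above, while KRT19 averaged 5.49 and CDH1, EPCAM, ESR1 and PGR 3.76 to 4.45. Among genes, ERBB2 stood there at percentile 71.1, KRT8 at 42.4 and FOXA1 at 39.4, so KRT8 and FOXA1 lay below the median gene. Of 5 endothelial markers 1 lay above the array medians in each group, at percentile 39.4 to 47.5 among genes. Of 8 leukocyte markers, 1, the lysosomal CD68, lay above the medians in each group. In whole-culture RNA, fewer cells of a kind and less RNA per cell cannot be told apart. Array names carry a position code with columns 5, 7 and 9, and 1 array labelled as replicate 3 of c-Jun siRNA with TNFα has a name that reads as a second run of replicate 1. Over all genes those 2 arrays differed with an SD of 0.121, inside the range of 0.119 to 0.142 of all replicate pairs. The other 2 pairs of their group differed by 0.133 and 0.142. The deviations of the 2 arrays from their group mean correlated at -0.368, the highest of the 12 pairs within groups, so a repeat run cannot be told apart from a separate sample. They were kept as separate replicates. With these 2 arrays averaged, the only member call that ended was that of TNFAIP1 for c-Jun siRNA with TNFα.

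**Figure D1:**
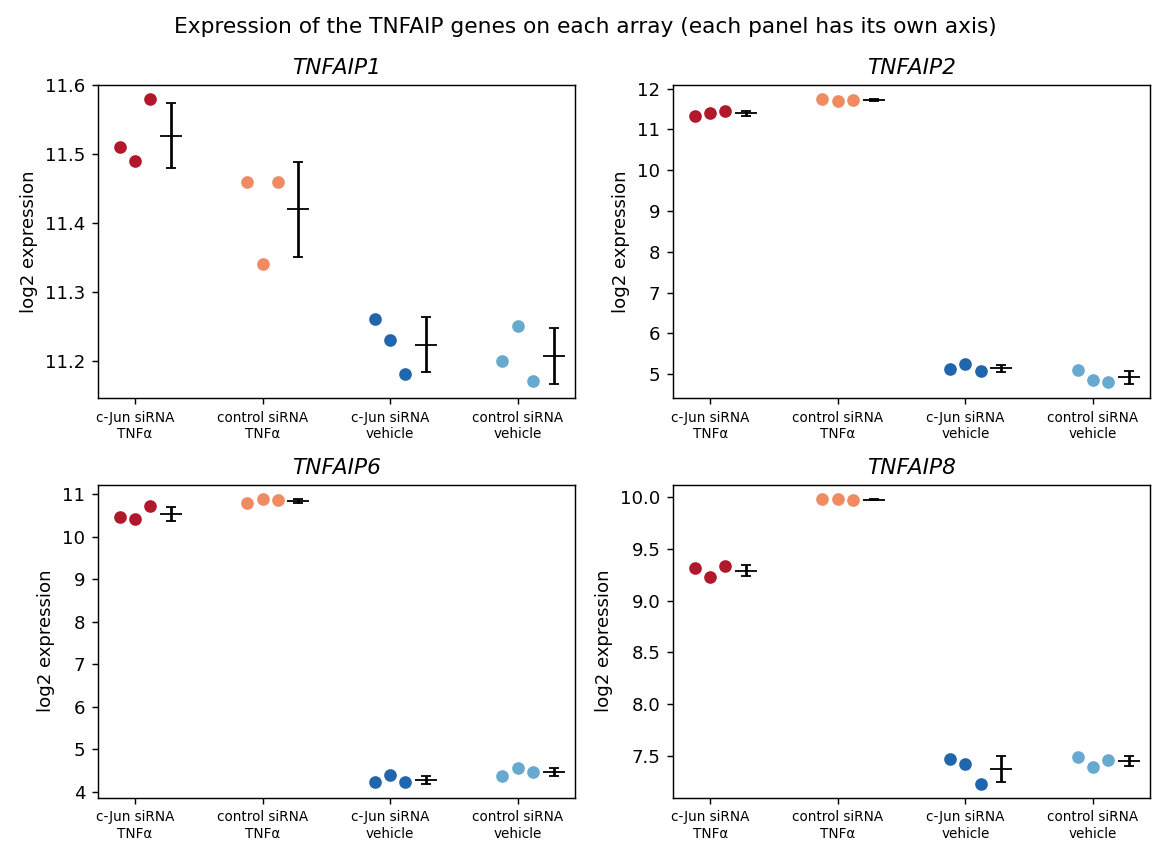
Log2 expression of TNFAIP1, TNFAIP2, TNFAIP6 and TNFAIP8 on each of the 12 arrays, with a panel and axis for each gene. Points are arrays, and bars beside them give the mean and SD of 3 arrays. TNFAIP2 and TNFAIP6 lie at 10.41 to 11.74 on all TNFα arrays and at 4.23 to 5.24 on all vehicle arrays.

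TNFAIP2, the exocyst-like protein, was among the genes that rose most with TNFα. It stood at 11.33, 11.41 and 11.45 with c-Jun siRNA and TNFα, against 5.12, 5.24 and 5.07 with c-Jun siRNA and vehicle. With control siRNA it stood at 11.74, 11.69 and 11.72 with TNFα, against 5.10, 4.87 and 4.80 with vehicle. The TNFα and vehicle arrays were more than 6 log2 units apart under either siRNA. TNFα raised it by 6.25 ± 0.067 (log2, SE, n = 3 per group; adjusted p = 7.3e-21) with c-Jun siRNA, or 76.3-fold, the rank 3 rise among 17958 genes. With control siRNA the rise was 6.79 ± 0.067 (adjusted p = 1.17e-21), or 111-fold, at rank 2. Its vehicle values lay below the array medians, so the background bounds how exactly these folds are known.

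TNFAIP6, the hyaluronan-binding protein, rose about as far. Its values were 10.45, 10.41 and 10.73 with c-Jun siRNA and TNFα, against 4.23, 4.39 and 4.24 with c-Jun siRNA and vehicle. With control siRNA they were 10.79, 10.88 and 10.85 with TNFα, against 4.37, 4.56 and 4.47 with vehicle. No TNFα array came near a vehicle array, and the 3 arrays of c-Jun siRNA with TNFα spread most (SD 0.175). The rise was 6.24 ± 0.078 (log2, SE; adjusted p = 5.33e-20) with c-Jun siRNA, or 75.6-fold, and 6.38 ± 0.078 (adjusted p = 1.82e-20) with control siRNA, or 83.0-fold. It ranked 4 in both comparisons. Here too the vehicle values lay below the array medians, and with values below 5 set to 5 the rise was 46.1-fold with c-Jun siRNA and 57.3-fold with control siRNA.

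TNFAIP8, the TIPE family gene, rose by a smaller step from a higher level. It stood at 9.31, 9.23 and 9.33 with c-Jun siRNA and TNFα, against 7.47, 7.42 and 7.23 with c-Jun siRNA and vehicle. With control siRNA the values were 9.98, 9.98 and 9.97 with TNFα, against 7.49, 7.39 and 7.46 with vehicle. The TNFα arrays formed 2 levels that the siRNA separates, while the vehicle arrays of both siRNAs overlapped. TNFα raised TNFAIP8 by 1.92 ± 0.055 (log2, SE; adjusted p = 6.72e-15) with c-Jun siRNA, or 3.77-fold, and by 2.53 ± 0.055 (adjusted p = 6.26e-17) with control siRNA, or 5.76-fold. These were rank 79 and rank 75 among all rises.

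TNFAIP1, the cullin adaptor, was high before treatment and moved little. Its values were 11.51, 11.49 and 11.58 with c-Jun siRNA and TNFα, against 11.26, 11.23 and 11.18 with c-Jun siRNA and vehicle. With control siRNA they were 11.46, 11.34 and 11.46 with TNFα, against 11.20, 11.25 and 11.17 with vehicle. Each TNFα array lay above each vehicle array of its siRNA, by small margins. The rise was 0.30 ± 0.038 (log2, SE; adjusted p = 4.2e-06) with c-Jun siRNA, or 1.23-fold, and 0.21 ± 0.038 (adjusted p = 0.000165) with control siRNA, or 1.16-fold. With the position column as a fixed block the first of these became 0.21 and the call ended (adjusted p = 0.0624).

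Thus all 4 members were called higher with TNFα under both siRNAs, and their groups did not overlap, beside 11.3% of all genes called higher with c-Jun siRNA and 13.8% with control siRNA. Calls in either direction made up 29.6% of genes with c-Jun siRNA and 35.7% with control siRNA. Without overlap, 15.3% of genes were higher and 23.6% lower with c-Jun siRNA, and 17.6% were higher and 27.6% lower with control siRNA. The members are named for this induction, so their count is a description. Under control siRNA the 95% intervals were 6.65 to 6.93 for TNFAIP2, 6.21 to 6.54 for TNFAIP6, 2.41 to 2.64 for TNFAIP8 and 0.13 to 0.29 for TNFAIP1, and no 2 of them overlapped. Under c-Jun siRNA those of TNFAIP2 and TNFAIP6 did, at 6.11 to 6.39 and 6.08 to 6.40. Within position column 7, which holds 2 arrays of each control siRNA group, the rises were 6.71, 6.40, 2.53 and 0.18 for TNFAIP2, TNFAIP6, TNFAIP8 and TNFAIP1. The TNFα and vehicle arrays of c-Jun siRNA share no column, so column and treatment cannot be told apart there within a column. Among leukocyte markers the integrin ITGAM moved with TNFα, by 0.69 with c-Jun siRNA and 0.78 with control siRNA, and CD14 fell with control siRNA (-0.30). Group means of ITGAM (4.7 to 5.5) and CD14 (4.6 to 4.9) lay below the array medians, so the background bounds how exactly these changes are known. The other 6 of 8 did not pass for TNFα under either siRNA, and group means of PTPRC ran from 3.78 to 3.83 and those of CD3E from 3.95 to 3.99. The mean over the 8 leukocyte markers ran from 4.97 to 5.02 on arrays of c-Jun siRNA with TNFα and from 4.93 to 5.01 with control siRNA and TNFα. It ran from 4.87 to 4.91 with c-Jun siRNA and vehicle and from 4.89 to 4.93 with control siRNA and vehicle. Their part in the members' rises was not tested.

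**Figure D2:**
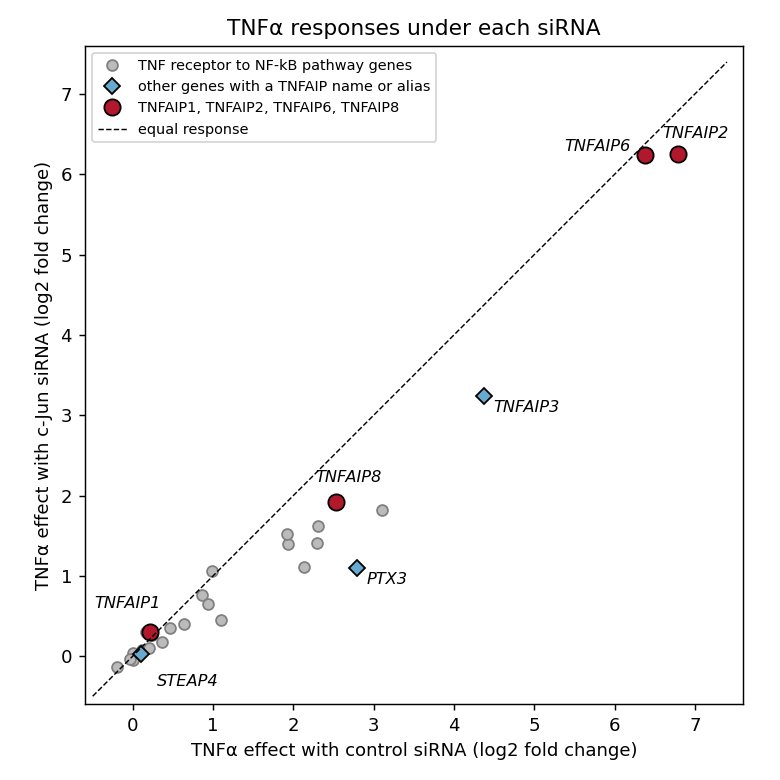
TNFα effect with c-Jun siRNA (vertical axis, log2 fold change) against the TNFα effect with control siRNA (horizontal axis, log2 fold change), with a dashed line of equal response. Red points are the 4 members, diamonds PTX3, TNFAIP3 and STEAP4, which have a TNFAIP name or alias, and grey points TNF receptor and NF-kB pathway genes. TNFAIP6 (6.24 against 6.38) lies nearest the line among the strongly induced members, and PTX3 (1.09 against 2.80) lies furthest below it among the named genes.

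The comparison of siRNAs under TNFα addresses whether the induced level differs with c-Jun siRNA. TNFAIP8 fell most among the members with c-Jun siRNA and TNFα, by 0.69 ± 0.055 on the log2 scale (recorded as -0.69; adjusted p = 2.03e-08), to 62.2% of the level with control siRNA and TNFα. TNFAIP2 fell to 80.3% (log2 -0.32 ± 0.067, adjusted p = 0.00124) and TNFAIP6 to 80.5% (log2 -0.31 ± 0.078, adjusted p = 0.00473). For these 3 genes, each array with c-Jun siRNA lay below each array with control siRNA. TNFAIP1 went the other way, 0.11 ± 0.038 higher (log2, SE; adjusted p = 0.0443), and its 3 arrays lay above those of control siRNA. That last call ended under 16 of 30 alternatives. Leaving out any 1 of 6 arrays was among them, and the difference was 0.066 without replicate 2 of control siRNA with TNFα and 0.078 without replicate 3 of c-Jun siRNA with TNFα. The 3 falls stand beside 14.4% of all genes called lower (19.4% lower without overlap), and the 1 rise beside 14.1% called higher (19.1% without overlap). Position column 7 holds 1 array of c-Jun siRNA with TNFα, and column 9 holds 1 of control siRNA with TNFα beside the 2 c-Jun siRNA arrays that may be runs of 1 sample. Each lone array is assumed to vary like the other groups. Within column 7 the differences were -0.74 for TNFAIP8, -0.29 for TNFAIP2, -0.46 for TNFAIP6 and 0.085 for TNFAIP1. Within column 9 they were -0.66, -0.35, -0.20 and 0.086 in the same gene order, and there TNFAIP6 no longer passed (adjusted p = 0.316). The epithelial cadherin CDH1 was higher with c-Jun siRNA, by 0.95 ± 0.090 with TNFα and 0.55 ± 0.090 with vehicle, and was the only 1 of the 8 epithelial and luminal markers called higher. FOXA1 was the 1 called lower, with vehicle (-0.37 ± 0.11), and none was called lower with TNFα. Group means of CDH1 ran from 4.45 to 5.48, below the array medians, so the background bounds how exactly its differences are known. Of 5 endothelial markers TEK, an angiopoietin receptor, was higher with c-Jun siRNA, by 0.61 ± 0.074 with TNFα and 0.93 ± 0.074 with vehicle, and the other 4 did not pass. The leukocyte marker CD68 was higher with c-Jun siRNA and vehicle (0.11 ± 0.037), and none of the 8 leukocyte markers passed with TNFα. Of 6 mesenchymal markers, 1 was higher and 1 lower with c-Jun siRNA and TNFα, with changes from -0.60 to 0.24. With vehicle 1 was higher and 4 lower, with changes from -0.45 to 0.10. The part of such shifts in the members' differences was not tested.

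With vehicle the c-Jun siRNA left most members near the control siRNA level. TNFAIP2 was called higher, by 0.22 ± 0.067 (log2, SE; adjusted p = 0.0185), at 116% of the control siRNA level, but its arrays overlapped, 5.07 to 5.24 with c-Jun siRNA against 4.80 to 5.10 with control siRNA. That call ended under 7 of 29 alternatives, and with values below 5 set to 5 it was 0.11 (adjusted p = 0.17). Leaving out replicate 2 of c-Jun siRNA with vehicle, or replicate 2 or 3 of control siRNA with vehicle, also ended it, at 0.17, 0.19 and 0.16. Within column 5, which holds 1 control siRNA array, the difference was 0.34. TNFAIP6 differed by -0.18 ± 0.078 (adjusted p = 0.104), TNFAIP8 by -0.075 ± 0.055 (adjusted p = 0.373) and TNFAIP1 by 0.017 ± 0.038 (adjusted p = 0.819), and none of these passed. Their 95% intervals ran from -0.34 to -0.014, from -0.19 to 0.041 and from -0.063 to 0.096, which bounds any change. Without replicate 2 of c-Jun siRNA with vehicle, TNFAIP6 passed, at -0.23 (adjusted p = 0.0482). Over all genes 14.4% were called higher and 14.5% lower in this comparison, and without overlap 19% were higher and 20.2% lower.

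The difference between the TNFα responses tests the c-Jun siRNA effect on induction itself, on the log2 scale. TNFAIP8 responded less with c-Jun siRNA, by -0.61 ± 0.078 (log2, SE; adjusted p = 5.01e-05), and so did TNFAIP2, by -0.54 ± 0.095 (adjusted p = 0.00147). For TNFAIP8 nearly all of it lay on the TNFα arrays, its vehicle difference being -0.075. That of TNFAIP2 was made of a fall of 0.32 with TNFα (-0.32) and a vehicle difference of 0.22. TNFAIP6 differed by -0.13 ± 0.11 (adjusted p = 0.619, 95% interval -0.37 to 0.097) and TNFAIP1 by 0.089 ± 0.053 (adjusted p = 0.449, 95% interval -0.024 to 0.20), and neither passed. In this comparison 5.47% of all genes were called, 3.59% lower and 1.88% higher. Among the 322 genes called at least 2-fold higher with TNFα and control siRNA, which include 3 members, 62.1% were called lower, so that 2 of 3 members is near the share of induced genes in general. Those 322 were picked on arrays that also enter the difference.

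**Figure D3:**
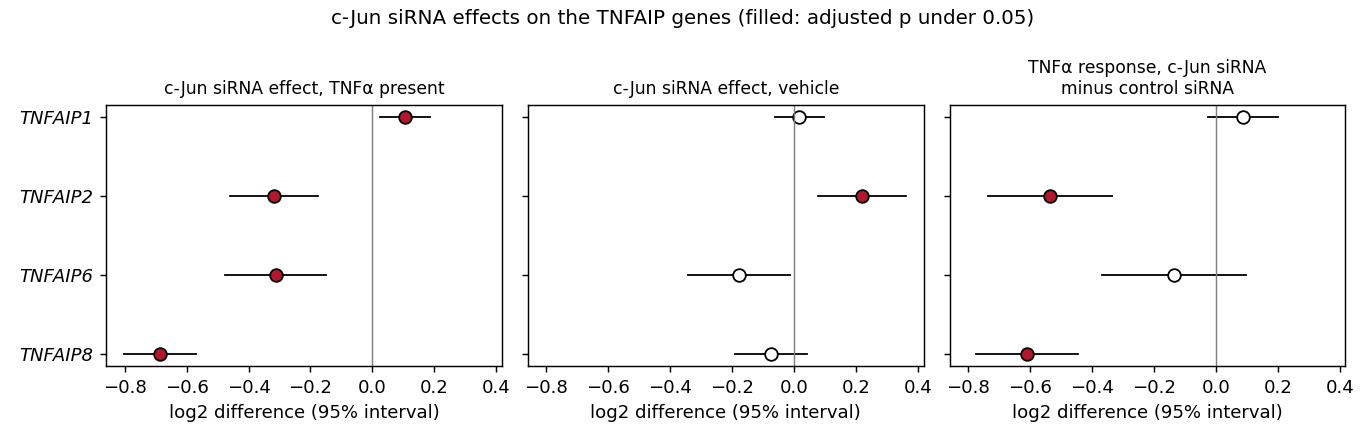
Effect of c-Jun siRNA on each member with TNFα (left) and vehicle (middle), and the TNFα response with c-Jun siRNA minus that with control siRNA (right), as log2 differences with 95% intervals from limma (3 arrays per group). Filled points have an adjusted p under 0.05. TNFAIP8 has the lowest value with TNFα, -0.69, and its vehicle interval spans 0.

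The share of the log2 response that was kept was lower for TNFAIP8 than for TNFAIP2 and TNFAIP6. With c-Jun siRNA the rise of TNFAIP6 was 97.9% of that with control siRNA, the rise of TNFAIP2 92.1% and the rise of TNFAIP8 75.8%. The median over the 322 induced genes was 75.3%, and 51 of them had a larger share than TNFAIP6, 77 a larger one than TNFAIP2 and 157 a larger one than TNFAIP8. For TNFAIP2 and TNFAIP6 these shares rest on vehicle values below the array medians. With values below 5 set to 5 they were 93.6% for TNFAIP2 and 94.6% for TNFAIP6, so their order to one another is not known. TNFAIP8 stood at the middle of the induced genes on this measure. The share depends on the size of the rise, which was larger for TNFAIP2 than for TNFAIP8. The difference of responses itself was close for TNFAIP8 (-0.61 ± 0.078) and TNFAIP2 (-0.54 ± 0.095). Of the 322 genes, 107 had a lower difference than TNFAIP8, 129 a lower one than TNFAIP2 and 244 a lower one than TNFAIP6. For TNFAIP1 the share was 142%, of a rise of only 0.21.

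Besides TNFAIP8L1, TNFAIP8L2 and TNFAIP8L3, which are described below, PTX3, TNFAIP3 and STEAP4 carry or carried a TNFAIP name. Of PTX3, TNFAIP3 and STEAP4, 2 rose with TNFα under both siRNAs, and none of the TNFAIP8L genes passed for TNFα. PTX3, once TNFAIP5, encodes a pentraxin that binds TNFAIP6 in hyaluronan-rich matrix. Its values were 4.92, 5.32 and 4.89 with c-Jun siRNA and TNFα, against 6.65, 6.68 and 7.06 with control siRNA and TNFα. With vehicle they were 3.97, 4.03 and 3.85 with c-Jun siRNA, against 3.87, 3.95 and 4.17 with control siRNA. The siRNAs were thus apart with TNFα and overlapped with vehicle. PTX3 rose with TNFα by 1.09 ± 0.12 (log2, SE) with c-Jun siRNA and by 2.80 ± 0.12 with control siRNA, and the difference of -1.70 ± 0.17 (adjusted p = 3.47e-06) was larger than that of any of the 4 members. All PTX3 values with vehicle, and those with c-Jun siRNA and TNFα, lay below the array medians. The background therefore bounds how exactly the PTX3 rises and their difference are known. TNFAIP3, which encodes the NF-kB inhibitor A20, rose by 3.24 ± 0.055 with c-Jun siRNA and by 4.37 ± 0.055 with control siRNA, and it was higher with c-Jun siRNA and vehicle (0.89 ± 0.055). STEAP4, a metalloreductase also listed as TNFAIP9, stood at 3.35 to 3.66 on all 12 arrays, and its TNFα effects of 0.030 with c-Jun siRNA and 0.10 with control siRNA did not pass.

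Protein relatives of the members showed no called rise with TNFα, except among Link-module genes, and several relatives lay below the array medians. KCTD13 and KCTD10, the paralogs of TNFAIP1 at the cullin 3 ligase, changed with TNFα by 0.12 and -0.057 with c-Jun siRNA and by 0.11 and 0.091 with control siRNA, and none of these passed. Both were lower with c-Jun siRNA: KCTD13 by -0.44 ± 0.048 with TNFα and -0.45 ± 0.048 with vehicle, KCTD10 by -0.33 ± 0.050 with TNFα and -0.18 ± 0.050 with vehicle. KCTD13 stood at 8.83 to 9.10 on the c-Jun siRNA arrays and at 9.27 to 9.47 on the control siRNA arrays, with no overlap, which TNFAIP1 itself did not show. EXOC3L1 and EXOC3L2, relatives of TNFAIP2, gave TNFα effects of 0.061 and -0.069 with c-Jun siRNA and 0.18 and -0.034 with control siRNA, none of which passed. TNFAIP8L1, TNFAIP8L2 and TNFAIP8L3, the other TIPE genes, gave -0.086, -0.17 and 0.25 with c-Jun siRNA and -0.056, -0.019 and 0.080 with control siRNA, and none passed. Group means of EXOC3L1, EXOC3L2, TNFAIP8L2 and TNFAIP8L3 ran from 4.28 to 5.57, below the array medians, so whether they were expressed is not known. TNFAIP8L1 averaged 8.80 to 8.97. Of the 12 Link-module genes 2 rose under both siRNAs: HAPLN3, a hyaluronan link protein, by 0.80 with c-Jun siRNA and 0.82 with control siRNA, and the hyaluronan receptor CD44 by 0.11 with c-Jun siRNA and 0.19 with control siRNA. No Link-module gene was called for c-Jun siRNA with TNFα, with vehicle, or for the difference of responses. Among them HAPLN1, HAPLN2, ACAN, BCAN, NCAN, LYVE1, STAB1 and STAB2 had group means of 3.30 to 5.21, below the array medians, so whether these were expressed is not known.

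**Figure D4:**
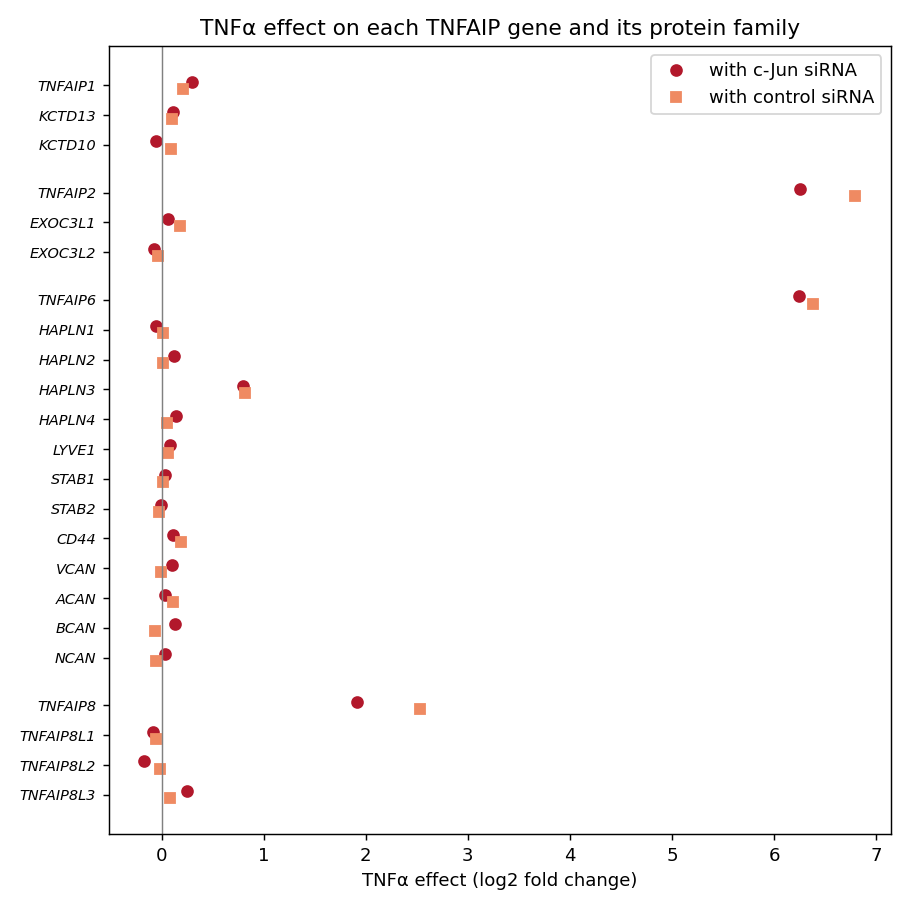
TNFα effect (log2 fold change) on each member and on its protein relatives, with c-Jun siRNA (circles) and control siRNA (squares). TNFAIP2, TNFAIP6 and TNFAIP8 stand at 1.92 or more, and all relatives at 0.82 or less.

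Partner genes of each member were described from lists. Over all genes, 11.3% rose and 18.3% fell with TNFα and c-Jun siRNA, and 13.8% rose and 21.9% fell with control siRNA. The counts in these small lists stand beside those shares and are descriptions. In the cullin 3 list of TNFAIP1, 1 of 7 measured genes rose with TNFα under either siRNA, the small GTPase RHOB (0.18 with c-Jun siRNA, 0.23 with control siRNA), and none fell. In the list of exocyst genes and TNFAIP2 relatives, 1 of 13 rose and 3 fell with c-Jun siRNA, and none rose and 2 fell with control siRNA. The fallers included EXOC4 (-0.18 with c-Jun siRNA, -0.13 with control siRNA) and EXOC6B (-0.13 with c-Jun siRNA, -0.20 with control siRNA). LST1, a membrane protein that recruits M-Sec, was the 1 that rose with c-Jun siRNA, by 0.78 ± 0.11, and with control siRNA it changed by 0.13 and did not pass. Its difference of responses was 0.65 ± 0.15 (adjusted p = 0.0129), opposite in sign to that of TNFAIP2. The LST1 arrays ran from 5.98 to 6.35 with c-Jun siRNA and TNFα, against 5.39 to 5.70 with control siRNA and TNFα. The medians of these 2 lists lay between -0.059 and 0.066 for the TNFα effects, beside medians over all genes of -0.016 with c-Jun siRNA and -0.023 with control siRNA.

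Around TNFAIP6, HAS2 was the 1 gene of hyaluronan synthesis and turnover that fell with TNFα. HAS2, a hyaluronan synthase, stood at 8.39, 8.23 and 8.30 with c-Jun siRNA and TNFα, against 8.61, 8.54 and 8.5 with c-Jun siRNA and vehicle. With control siRNA it stood at 8.38, 8.48 and 8.35 with TNFα, against 9.34, 9.32 and 9.24 with vehicle. It fell with TNFα in both, by -0.24 ± 0.051 with c-Jun siRNA and -0.89 ± 0.051 with control siRNA, while TNFAIP6 rose. With vehicle HAS2 was already lower with c-Jun siRNA (-0.75). Its TNFα means were close, 8.31 with c-Jun siRNA and 8.40 with control siRNA, and its difference of responses was 0.65 and called higher. Among the 6 measured genes of hyaluronan synthesis and turnover, 1 rose and 1 fell with c-Jun siRNA and 2 rose and 1 fell with control siRNA. The hyaluronidase CEMIP2 rose by 0.18 with c-Jun siRNA and 0.54 with control siRNA, and UGDH, which makes the sugar precursor, rose with control siRNA by 0.14. Of 13 genes for ligands and heavy chain transfer, 4 rose and 1 fell with TNFα under either siRNA. Risers besides PTX3 and CD44 were thrombospondin THBS1 (0.20 with c-Jun siRNA, 0.73 with control siRNA) and fibronectin FN1 (0.20 with c-Jun siRNA, 0.36 with control siRNA), and THBS2 fell (-0.37 with c-Jun siRNA, -0.32 with control siRNA). With vehicle, CEMIP2 and THBS1 were already higher with c-Jun siRNA, by 0.79 and 0.93. None of the inter-alpha-inhibitor heavy chain genes, ITIH1 to ITIH5, was called in any comparison, nor was AMBP, which encodes bikunin. Group means of these 6 genes ran from 3.77 to 5.25, below the array medians, so whether they were expressed is not known. The median TNFα effect of that list was 0.036 with c-Jun siRNA and -0.0040 with control siRNA.

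Around TNFAIP8, caspase-8 rose with its named inhibitor. CASP8 changed with TNFα by 0.62 ± 0.050 with c-Jun siRNA and 0.86 ± 0.050 with control siRNA. Unlike TNFAIP8 it was higher with c-Jun siRNA, by 0.21 ± 0.050 with TNFα and 0.44 ± 0.050 with vehicle. The death receptor adaptor FADD rose by 0.14 with c-Jun siRNA and by 0.18 with control siRNA. Of 10 measured family and partner genes 3 rose and 1 fell with c-Jun siRNA, and 3 rose and 2 fell with control siRNA. GNAI1, a G protein alpha subunit, fell with TNFα and control siRNA (-0.55 ± 0.063), changed by 0.16 with c-Jun siRNA and did not pass there, and differed between the responses by 0.71 ± 0.089 (adjusted p = 4.38e-05). The partner GNAI3 was not called in any comparison.

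The pathway from the TNF receptors to NF-kB moved with the members under TNFα. Of 22 measured genes 16 rose and none fell with c-Jun siRNA, and 18 rose and 1 fell with control siRNA, with medians of 0.43 with c-Jun siRNA and 0.75 with control siRNA. The inhibitor NFKBIA rose by 1.82 with c-Jun siRNA and by 3.10 with control siRNA, and the subunit RELB by 1.41 with c-Jun siRNA and by 2.29 with control siRNA. NFKB2, another subunit gene, rose by 1.11 with c-Jun siRNA and by 2.13 with control siRNA, and the deubiquitinase gene CYLD by 1.62 with c-Jun siRNA and by 2.31 with control siRNA. For the difference of responses 10 of 22 were lower and none higher, with a median of -0.16, beside 3.59% lower among all genes and 62.1% among the 322 induced genes. With TNFα, 4 were higher and 7 lower with c-Jun siRNA, with a median of -0.016, and NFKBIA averaged 12.59 with c-Jun siRNA and 12.60 with control siRNA. Under vehicle 11 were higher and 2 lower with c-Jun siRNA, NFKBIA by 1.27 among them, where TNFAIP6, TNFAIP8 and TNFAIP1 did not pass. Over all genes 14.1% were higher and 14.4% lower with c-Jun siRNA and TNFα, and 14.4% higher and 14.5% lower with vehicle. TNFAIP3, described above, is 1 of the 22. Among 8 AP-1 subunits 4 rose and 1 fell with TNFα and c-Jun siRNA, and 5 rose and 2 fell with control siRNA. JUNB rose by 0.98 with c-Jun siRNA and 1.30 with control siRNA.

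Neighbouring genes on the chromosome moved with some members under TNFα, while their siRNA effects did not always follow. TNFAIP8 lies at chr5:119268759-119399688 (GRCh38.p14), and DMXL1, the nearest measured gene on its lower side at a gap of 19631 bases, rose with TNFα by 0.49 ± 0.049 with c-Jun siRNA and 0.77 ± 0.049 with control siRNA. Like TNFAIP8, DMXL1 was lower with c-Jun siRNA and TNFα (-0.41 ± 0.049), with a difference of responses of -0.29 ± 0.070 (adjusted p = 0.0186). HSD17B4 on the other side did not pass for TNFα. Unlike TNFAIP8 it was higher with c-Jun siRNA, by 0.15 with TNFα and 0.18 with vehicle. TNFAIP6 lies at chr2:151357592-151381340, between NMI, an interferon-induced adaptor that rose by 1.38 with c-Jun siRNA and 1.90 with control siRNA, and RIF1, a genome maintenance factor that rose by 0.35 with c-Jun siRNA and 0.42 with control siRNA. TNFAIP1 lies at chr17:28335761-28347009, and of its neighbours VMA12, an assembly factor of the vacuolar proton pump, rose by 0.18 with c-Jun siRNA and 0.27 with control siRNA, while TMEM97, a sterol-regulated membrane protein, did not pass for TNFα (0.074 with c-Jun siRNA, 0.014 with control siRNA). TNFAIP2 lies at chr14:103121469-103137439. Its neighbour EIF5, a translation initiation factor, rose by 0.19 with c-Jun siRNA and 0.24 with control siRNA, and CDC42BPB, a kinase that acts downstream of CDC42, fell with control siRNA (-0.10) and did not pass with c-Jun siRNA (-0.035). With TNFα, RIF1 (-0.31), EIF5 (-0.13) and TMEM97 (-0.093) were lower with c-Jun siRNA, and NMI, VMA12 and CDC42BPB did not pass. With vehicle, NMI (0.65) was higher with c-Jun siRNA, RIF1 (-0.23) and TMEM97 (-0.15) were lower, and EIF5, VMA12 and CDC42BPB did not pass. NMI also responded less to TNFα with c-Jun siRNA (-0.52 ± 0.10), where TNFAIP6 did not pass. The positions of the probes within these genes are not given in the sources used here.

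By pattern, the closest genes were taken as those with the smallest root mean square difference over the 12 arrays, each gene set to 0 at its mean with control siRNA and vehicle. For TNFAIP2 these were VCAM1, an adhesion molecule (0.25 log2 units), TNFAIP6 (0.37) and CXCL10, a T-cell chemokine (0.90). For TNFAIP6 they were TNFAIP2 (0.37), VCAM1 (0.57) and MX1, an antiviral GTPase (0.81). TNFAIP2 and TNFAIP6 were thus each among the 2 closest to the other, although their proteins are unrelated. For TNFAIP8 the closest were CMPK2, a mitochondrial nucleotide kinase (0.13), CLIC5, an intracellular chloride channel protein (0.13), and MSC, a transcription repressor (0.14). For TNFAIP1 they were RRP1 (0.052) and MRTO4 (0.058), both of ribosome assembly, and SCAMP3 (0.060), a membrane trafficking protein, and 178 genes lay within 0.1 of TNFAIP1. All these points share the same arrays and groups, so likeness here describes the response to 2 treatments.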

How the data were processed

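Total RNA of 12 BT549 samples was hybridised to Affymetrix human gene arrays. Per the submitters' processing notes, Affymetrix Expression Console 1.1 and PLIER were among the tools, with roles not given in the sources used here. The deposited values were taken as log2 expression per probe set made by the authors, with the base inferred from their range of 2.27 to 14.0. They were not normalised further. Probe sets with 1 symbol gave 17958 genes, symbols were updated through Entrez identifiers, and a gene with several took the probe set of highest mean. limma 3.58.1 in R 4.3.3 fitted 1 mean per group with 8 residual degrees of freedom and a mean-variance trend, with contrasts for the TNFα effect per siRNA, the siRNA effect per treatment, and the difference of responses. Tests were two-sided, and a gene was called at an adjusted p under 0.05. The fit was also run on simulated data, whose outcome is not given here, so no error rate is drawn from it. Errors are standard errors of the fit, or SDs over 3 arrays.

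Groups and replicate numbers come from the labels. Samples of the same number in different groups did not deviate together (correlations -0.059 to 0.088 over 18 pairs), so numbers were not used as pairs. The members, the 13 gene lists (114 of 127 genes measured) and the tests were chosen with earlier results of these data known. Named genes are the members, JUN, their paralogs, other genes with a TNFAIP name or alias, up to 4 called genes per list and comparison with the largest change, the nearest measured neighbours and the 3 genes closest in pattern. Cell type markers, uncalled partner genes (the ITIH genes, AMBP, GNAI3) and genes called below the 4 largest are named outside that rule, with their values seen. Promoters are from RefSeq, GRCh38.p14, and all 4 members matched. Protein sequences were not used here. Alternatives were a floor, quantile and median scaling, filters on dim genes, other probe set and variance choices, array weights, blocks by replicate or position column, averaging of the possible second run, a stricter threshold and each array left out. The settings restricted to 1 position column were added after the data had been seen. Plots used pandas 2.3.3 and matplotlib 3.10.9 in Python 3.11.15.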

Additional observations from a re-analysis of the deposited data

Results flagged for a closer look

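The TNFα response of TNFAIP8 differed between the siRNAs, by -0.61 on the log2 scale (c-Jun siRNA minus control siRNA), and that of TNFAIP2 by -0.54. Both were taken up here because the difference itself passed the test. Those of TNFAIP6 and TNFAIP1 did not pass.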

How the results depend on the processing

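Of 572 values of the members under alternatives, 546 kept their side of the threshold, 26 gained or lost a call, and none reversed a called direction. Uncalled values near 0 did not all keep their sign. For c-Jun siRNA with vehicle, TNFAIP1 went from 0.017 to -0.0012 without replicate 3 of control siRNA with vehicle. It went to -0.0007 without replicate 1 of c-Jun siRNA with vehicle. TNFAIP6 in that comparison went from -0.18 to 0 with values below 5 set to 5. Both calls for the difference of responses held in all 27 alternatives, from -0.68 to -0.56 for TNFAIP8 and from -0.67 to -0.43 for TNFAIP2. The call of TNFAIP2 for c-Jun siRNA with vehicle ended with values below 5 set to 5 (0.11), and, at 0.22 each, with every probe set by itself, with only the compared groups fitted and at an adjusted p under 0.01. Leaving out 1 array gave 0.16 to 0.31 for it, and -0.23 to -0.13 for TNFAIP6, which passed without replicate 2 of c-Jun siRNA with vehicle. The call of TNFAIP1 for c-Jun siRNA with TNFα ended, at 0.11 each, with that floor, with every probe set by itself, without the mean-variance trend, with only the compared groups and at an adjusted p under 0.01. It also ended with the position column as a fixed block (0.085), with the possible second run averaged (0.095) and within column 7 (0.085) or 9 (0.086), and leaving out 1 array gave 0.066 to 0.13. Within column 9, TNFAIP6 with TNFα was -0.20 and 3182 genes were called for c-Jun siRNA. The fixed column block took TNFAIP1 with TNFα and c-Jun siRNA to 0.21, with 2376 genes called there, 3448 for c-Jun siRNA with vehicle and 531 for the difference of responses, and 553 were called for that difference at an adjusted p under 0.01. Settings within 1 column or with fewer groups use fewer samples, and otherwise the cause was not tested. Centring arrays on their medians made 38.8% of the calls for c-Jun siRNA with vehicle lower, against 50.2% as reported.

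Replicate numbers did not pair the samples. With the replicate block, the 1 member call that changed was that of TNFAIP1 for c-Jun siRNA with TNFα (0.11, adjusted p = 0.0567).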
